A study of Mus musculus with 7 samples.

Results

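Genes of the Bcl2 family were followed over 7 Affymetrix Mouse430_2 arrays of mouse bone marrow: Bcl2, Bcl2l1, Mcl1, Bax, Bak1, Bid, Bad, Bmf and Bcl2l11. The members are the probe sets of the deposited value table that carry exactly 1 of these 9 symbols and no other. That gave 18 of 16255 probe sets (manufacturer's controls left out), for 8 of the 9 genes. Mcl1 has 6 of them, Bcl2 and Bcl2l11 have 3 each, Bid has 2, and Bcl2l1, Bak1, Bad and Bmf have 1 each. Bax has 0 probe sets under its own name in the table and is not analysed here.

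All marrow came from recipients of a bone marrow transplant. The mock group holds 3 arrays of whole marrow whose transplant carried a mock control transgene. The group labelled ABCG2 holds 2 arrays of whole marrow whose transplant carried ABCG2, which encodes a drug efflux pump. The transgene EZH2-Mt, named after the histone methyltransferase of Polycomb repressive complex 2, is represented by 2 sorted fractions of marrow described as MDS-like, with 1 array for the cells carrying GFP (GFP-positive) and 1 for those without it (GFP-negative). MDS is taken here as myelodysplastic syndrome. The labels give no mouse strain, age, sex or mouse number, and no promoter for the transgenes, and the mutation behind EZH2-Mt is not given in the sources used here. Marrow of the mock and ABCG2 groups was not sorted, so it can hold cells without the transgene and cells left from the host.

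The Bcl2 family decides whether a cell keeps its mitochondria intact. Bcl2, Bcl2l1 (Bcl-xL) and Mcl1 hold death in check, Bax and Bak1 form pores in the outer mitochondrial membrane, and the BH3-only proteins Bcl2l11 (Bim), Bid, Bad and Bmf tip the balance towards pore formation. In marrow, Mcl1 is known for keeping neutrophils and stem cells alive, Bcl2 for lymphocytes, Bcl2l1 for maturing red cells, and Bim for removing lymphocytes and myeloid cells when cytokines are withdrawn.

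Values are signals on a log scale, taken as log2, that were centred on the median of the 7 arrays in each probe set. A value of 0 is thus the middle array of that probe set, and neither the level of a gene nor a ratio of 2 genes can be read from it. Every probe set in the table had to be called Present or Marginal on all 7 arrays, so a member listed here was detected everywhere. Between mock arrays 109 to 410 of the 16255 probe sets differed 2-fold or more, and 891 did between the ABCG2 arrays. Of the marker lists, 13 of 17 neutrophil, 8 of 10 monocyte and 8 of 15 B lineage genes were measured. So were 6 of 16 erythroid and 6 of 12 stem and progenitor genes, while Pax5, Cd79a and the haemoglobin genes were not analysed here. Such counts of measured genes do not test the marrow label. Mouse Abcg2 lay at 0.02, -0.17 and 0 on mock arrays and at -0.92 and -0.91 on ABCG2 arrays, a difference of -0.86 ± 0.14 (limma, adjusted p = 0.00276), and at 0.84 in GFP-negative and 1.35 in GFP-positive EZH2-Mt cells. Ezh2 was higher by 0.54 ± 0.18 on the ABCG2 arrays (limma, adjusted p = 0.0405) and lay inside the mock range in both EZH2-Mt fractions (-0.14 and -0.16). Neither gene was thus highest in the group named after it. Whether these probe sets read the transgenes is not known, and each direction given here belongs to the arrays as labelled. Control RNAs added at the bench also stood apart. The hybridization control bioB lay at -3.12 and -3.38 on the ABCG2 arrays against -0.09 to 0 on mock arrays, while bioC, bioD and cre lay from -0.66 to -0.09 on the ABCG2 arrays. All 4 hybridization controls were high in the EZH2-Mt fractions (0.71 to 2.49), and the poly-A controls ran from -1.94 to -0.80 on the ABCG2 arrays and from 1.57 to 4.06 in the EZH2-Mt fractions. A difference in array handling and the group cannot be told apart.

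The sequences below are the 250 bases upstream of the most upstream RefSeq start of the 4 genes that differed most between ABCG2 and mock marrow, 3 with higher and 1 with lower signal. They are shown 5′ to 3′ from RefSeq, assembly GRCm38.p6, with capitals at matches of 6 searched motifs on either strand.
Bcl2 (chr1:106714291-106714540, minus strand): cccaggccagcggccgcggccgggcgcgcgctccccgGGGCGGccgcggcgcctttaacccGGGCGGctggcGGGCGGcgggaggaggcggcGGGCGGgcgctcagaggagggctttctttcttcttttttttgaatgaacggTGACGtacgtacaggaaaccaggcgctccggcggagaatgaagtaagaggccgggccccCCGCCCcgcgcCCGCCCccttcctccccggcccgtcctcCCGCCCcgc
Bmf (chr2:118549687-118549936, minus strand): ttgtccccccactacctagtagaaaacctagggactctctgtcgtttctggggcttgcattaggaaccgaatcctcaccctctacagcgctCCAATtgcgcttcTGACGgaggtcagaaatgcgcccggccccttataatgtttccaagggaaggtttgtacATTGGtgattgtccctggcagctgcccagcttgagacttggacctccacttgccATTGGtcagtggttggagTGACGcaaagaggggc
Bcl2l11 (chr2:128125788-128126037, plus strand): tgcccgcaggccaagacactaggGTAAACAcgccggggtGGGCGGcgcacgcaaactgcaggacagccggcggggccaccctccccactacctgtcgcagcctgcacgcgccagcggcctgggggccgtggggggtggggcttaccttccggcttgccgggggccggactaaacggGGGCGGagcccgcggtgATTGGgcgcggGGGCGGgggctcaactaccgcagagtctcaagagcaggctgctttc
Mcl1 (chr3:95658471-95658720, plus strand): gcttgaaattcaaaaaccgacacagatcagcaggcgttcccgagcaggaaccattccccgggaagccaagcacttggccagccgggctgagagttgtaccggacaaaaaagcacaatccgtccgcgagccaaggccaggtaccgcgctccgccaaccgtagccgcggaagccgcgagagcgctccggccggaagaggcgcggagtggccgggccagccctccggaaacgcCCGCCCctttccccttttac
The motifs were GGGCGG (GC box), TGACG (core of the cAMP response element), TGTTTAC (forkhead factors), CCAAT, TTCNNNGAA (Stat factors) and TATAAA, and none contains another. The Bcl2 window, with 74.8% G and C, held 7 GC boxes and 1 TGACG. The Bmf window held 2 TGACG and 3 CCAAT matches and 0 GC boxes. The Bcl2l11 window held 3 GC boxes, 1 CCAAT and 1 forkhead match, and the Mcl1 window held 1 GC box alone. The 4 windows held 0 matches of TTCNNNGAA and 0 of TATAAA. Of 32851 windows of this length in the RefSeq table, 32.7% held a GC box, 17.8% TGACG, 3.17% the forkhead motif, 33.85% CCAAT, 7.02% TTCNNNGAA and 12.4% TATAAA. These are letter matches, and binding was not measured.

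Between ABCG2 and mock marrow the survival genes parted. Bcl2 was 7.77- to 10.5-fold higher on the ABCG2 arrays in all of its 3 probe sets, and Mcl1 was lower in 5 of its 6. Of the BH3-only genes, Bmf and Bcl2l11 rose and Bid fell in 1 of its 2 probe sets. In the limma fit over all probe sets 13 of the 18 member probe sets passed an adjusted p of 0.05, 7 higher and 6 lower. Over all 16255 probe sets 56.8% passed, 31.5% higher and 25.3% lower, so the number of members that passed is not particular to the family. The median absolute difference was 0.997 log2 in the members and 0.64 over all probe sets. The median signed difference over the member probe sets was -0.24. The mean over the 8 genes was higher on the ABCG2 arrays (0.42 and 0.44) than on mock arrays (-0.26 to -0.17). These are unlike measures, a median of probe sets and a mean of genes, and in the latter Mcl1 counts once and not 6 times.

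**Figure D1:**
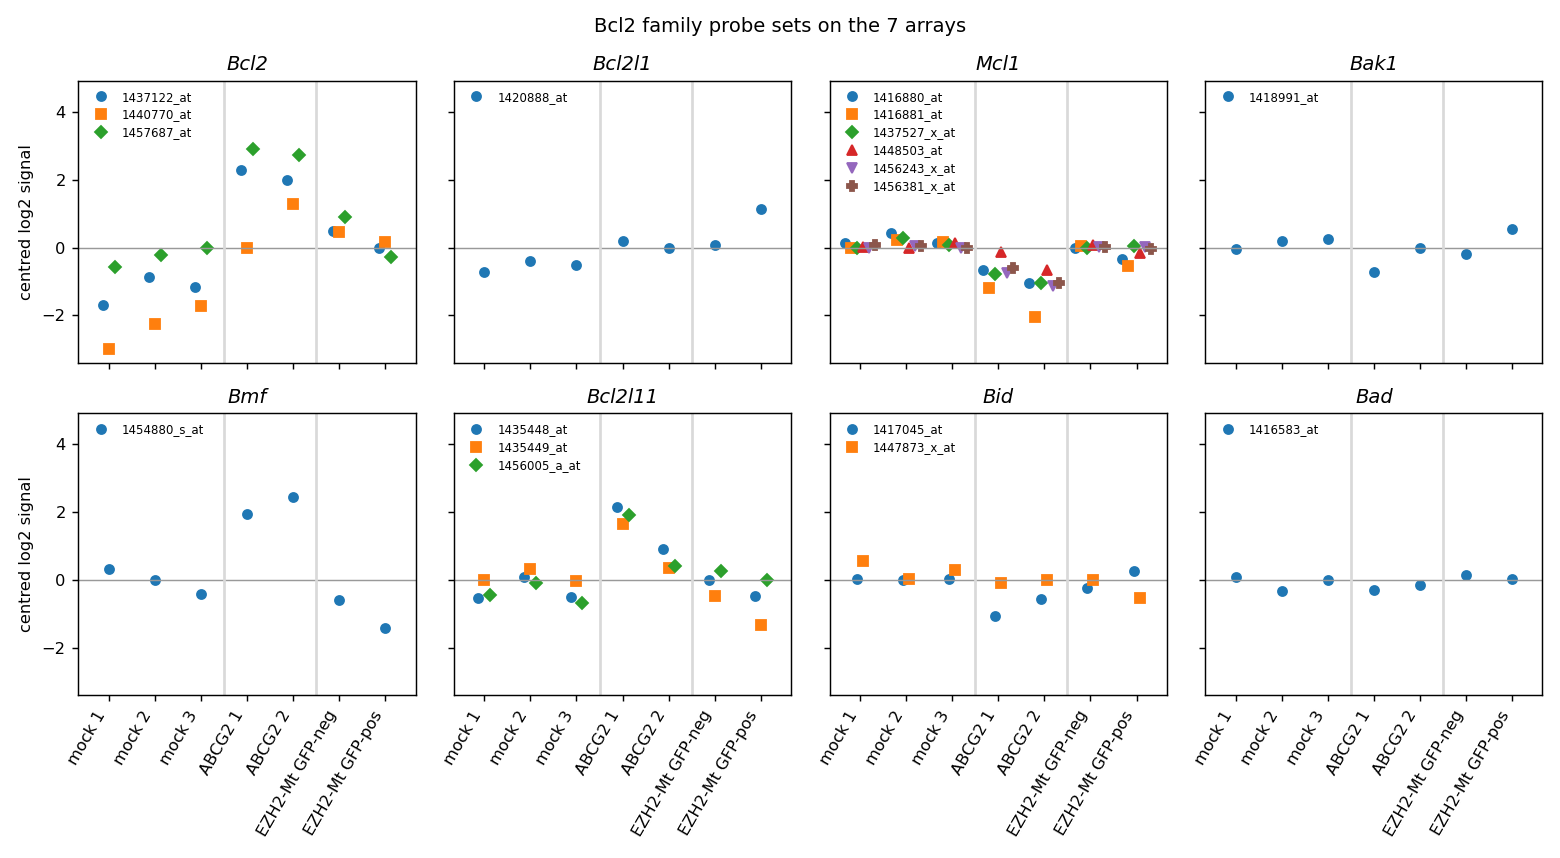
Centred log2 signal (y axis) of each Bcl2 family probe set on each of the 7 arrays (x axis), with 1 panel per gene, 1 marker per probe set and points shifted sideways only to separate them. The Bcl2 points of mock marrow reach down to -2.98 while the ABCG2 points reach 2.90, and the Mcl1 points are lowest on the ABCG2 arrays.

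Bcl2, the founding survival protein of the family, was lowest in mock marrow in the mean of its probe sets. In 1457687_at, however, GFP-positive EZH2-Mt cells (-0.27) lay inside the mock range. Probe set 1437122_at lay at -1.69, -0.88 and -1.17 on the mock arrays and at 2.30 and 1.997 on the ABCG2 arrays. The groups did not overlap, and the difference was 3.39 ± 0.26 (limma standard error), 10.5-fold if the logs are base 2 (adjusted p = 0.000149). Probe set 1457687_at lay at -0.56, -0.22 and 0 against 2.90 and 2.73, again without overlap, and rose by 3.07 ± 0.20 (adjusted p = 9.02e-05, limma). Probe set 1440770_at was the least even of the Bcl2 probe sets. It lay at -2.98, -2.26 and -1.71 on mock arrays and at 0 and 1.28 on ABCG2 arrays, a rise of 2.96 ± 0.48 (adjusted p = 0.00256, limma). Ranked by absolute difference, the Bcl2 probe sets stood at 353, 468 and 509 of 16255.

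Mcl1, a short-lived survival protein, went the other way. Its probe set 1416881_at lay at 0, 0.22 and 0.18 on mock arrays and at -1.18 and -2.05 on ABCG2 arrays. Both ABCG2 arrays were below all mock arrays, and the fall was 1.74 ± 0.26 (3.35-fold, limma, adjusted p = 0.00197). In 1416880_at the mock values were 0.13, 0.43 and 0.13 and the ABCG2 values -0.66 and -1.05, with a difference of -1.09 ± 0.19 (adjusted p = 0.00327, limma). The probe sets 1437527_x_at, 1456243_x_at and 1456381_x_at fell by 1.03, 0.96 and 0.87 log2 (adjusted p from 0.00246 to 0.00588, limma). The suffix of these 3 marks probes that can also match other transcripts. The sixth, 1448503_at, lay at 0.03, 0 and 0.13 in mock and -0.13 and -0.66 in ABCG2 marrow and did not pass (-0.45 ± 0.19, limma, adjusted p = 0.0853), but did without ABCG2 replicate 1 (-0.71, adjusted p = 0.0187). With quantile normalization 1456243_x_at (-0.65, adjusted p = 0.0587) and 1456381_x_at (-0.64, adjusted p = 0.0610) no longer passed. In every Mcl1 probe set the second ABCG2 array was the lower of the pair.

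Bcl2l1, whose long product Bcl-xL protects maturing red cells, lay at -0.73, -0.38 and -0.53 on mock arrays and at 0.18 and 0 on ABCG2 arrays. The groups did not overlap, and the rise of 0.64 ± 0.17 was small beside that of Bcl2 (limma, adjusted p = 0.0164). Without ABCG2 replicate 1 it was 0.55 and did not pass (adjusted p = 0.0702), and with quantile normalization it was 1.02. The probe set was read as a gene total, since short and long isoforms were not separated in the sources used here.

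**Figure D2:**
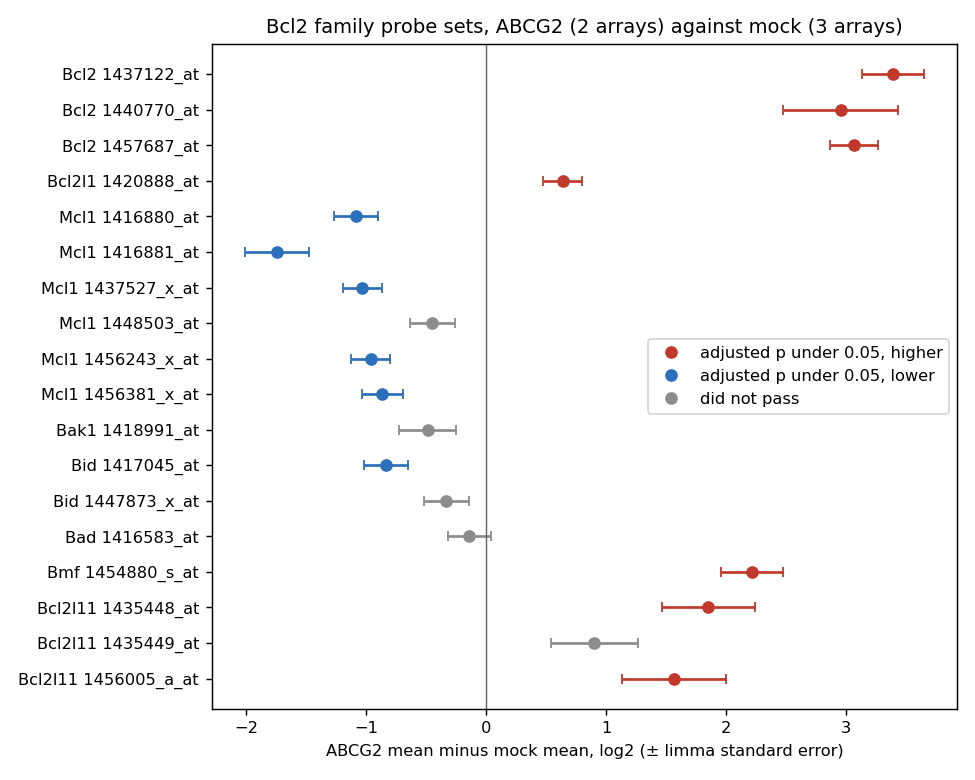
Difference between the mean of the 2 ABCG2 arrays and the mean of the 3 mock arrays (x axis, log2) for each of the 18 probe sets (y axis), with bars of 1 limma standard error and colour by call. The 3 Bcl2 probe sets lie between 2.96 and 3.39, and the 6 Mcl1 probe sets between -1.74 and -0.45.

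Bak1, the pore-forming member that could be read, had overlapping groups. It lay at -0.05, 0.20 and 0.24 on mock arrays and at -0.72 and 0 on ABCG2 arrays, and the difference of -0.49 ± 0.24 did not pass (limma, adjusted p = 0.125). The ABCG2 arrays were 0.72 apart, and without ABCG2 replicate 2 the difference was -0.85 and passed (adjusted p = 0.0166).

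Among the BH3-only genes, Bmf had the largest difference. Its product senses loss of attachment and of cytoskeletal anchoring. Bmf (1454880_s_at) lay at 0.33, 0 and -0.42 on mock arrays and at 1.95 and 2.43 on ABCG2 arrays, well apart, a rise of 2.22 ± 0.26 or 4.66-fold (limma, adjusted p = 0.000742). With quantile normalization the rise was 1.41 and still passed. The suffix of this probe set marks probes that can be shared by related transcripts.

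Bcl2l11, which encodes Bim, the most potent BH3-only killer of blood cells, was above mock on both ABCG2 arrays in all 3 probe sets, but the ABCG2 arrays differed by 1.25 to 1.51 log2 from each other. Probe set 1435448_at lay at -0.55, 0.07 and -0.50 in mock and at 2.16 and 0.90 in ABCG2 marrow, a rise of 1.85 ± 0.39 (limma, adjusted p = 0.00700). Probe set 1456005_a_at lay at -0.44, -0.09 and -0.69 against 1.91 and 0.41, a rise of 1.57 ± 0.43 (limma, adjusted p = 0.0209). Probe set 1435449_at lay at 0, 0.32 and -0.05 against 1.64 and 0.35 and did not pass (0.90 ± 0.37, limma, adjusted p = 0.0748). So the first ABCG2 array was high in Bim in every probe set, and the second only slightly above the highest mock array in 1435449_at. Without ABCG2 replicate 1 the differences were 1.23 in 1435448_at, 0.81 in 1456005_a_at and 0.26 in 1435449_at. Without ABCG2 replicate 2, 1435449_at passed (1.55, adjusted p = 0.00260). The call of 1456005_a_at was lost without mock replicate 1 (1.55, adjusted p = 0.0609) or mock replicate 3 (1.42, adjusted p = 0.0654). A difference of 1 log2 or more between the ABCG2 arrays was seen in 4 of the 18 member probe sets, these 3 and Bcl2 1440770_at, against 5.48% of all probe sets.

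Bid, which is cleaved by caspase 8 and carries death receptor signals to mitochondria, gave different answers in its probe sets. In 1417045_at the mock arrays lay within 0.03 of each other, at 0.03, 0 and 0.02, and the ABCG2 arrays at -1.07 and -0.57, a fall of 0.83 ± 0.18 (limma, adjusted p = 0.00852). With quantile normalization it was -0.60 and did not pass (adjusted p = 0.0744). In 1447873_x_at the values were 0.56, 0.02 and 0.29 against -0.08 and 0, and the difference did not pass (-0.33 ± 0.19, limma, adjusted p = 0.181). Bad, a BH3-only protein that growth factor signalling keeps phosphorylated and inactive, lay at 0.09, -0.34 and 0 in mock and at -0.30 and -0.15 in ABCG2 marrow. Its groups overlapped and its difference of -0.14 ± 0.18 had an adjusted p of 0.531 (limma).

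In 8 member probe sets both ABCG2 arrays lay above all mock arrays and in 8 both lay below, where 40.6% and 32.6% of all probe sets did. The probe sets whose groups overlapped were those of Bak1 and Bad.

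Because the centring hides levels, only the change of a ratio between arrays can be read. The mean of the Bcl2 probe sets minus that of the Mcl1 probe sets was -1.78, -1.28 and -1.04 on mock arrays and 2.42 and 3.17 on ABCG2 arrays, a shift of 4.16 log2 towards Bcl2. The EZH2-Mt fractions lay between the groups, at 0.59 in GFP-negative and 0.13 in GFP-positive cells. Between mock and ABCG2 marrow, but not in the EZH2-Mt fractions, Bcl2 and its antagonist Bmf moved more alike. Bcl2 minus Bmf was -2.07, -1.12 and -0.54 in mock and -0.22 and -0.43 in ABCG2 marrow, a shift of 0.92, and was highest in the EZH2-Mt fractions (1.21 and 1.37). Mcl1 minus Bcl2l11 moved from 0.36, 0.07 and 0.49 on mock arrays to -2.59 and -1.72 on ABCG2 arrays, with the EZH2-Mt fractions at 0.09 and 0.44, near mock.

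In the sorted EZH2-Mt marrow Bcl2 lay above mock in all 3 probe sets in GFP-negative cells and in 2 of 3 in GFP-positive cells, whereas Bmf lay below mock in both fractions. With 1 array per fraction these differences have no replicate check. In GFP-negative cells 3 member probe sets lay 1 log2 or more above the mock mean and 0 lay as far below, where 4.1% and 2.34% of all probe sets did. All 3 were those of Bcl2. In GFP-positive cells 3 lay that far above and 2 below, where 7.97% and 4.2% of all probe sets did. The median absolute difference from mock was 0.32 log2 for the members and 0.29 for all probe sets in GFP-negative cells, and 0.42 and 0.39 in GFP-positive cells. Counted by position alone, 6 member probe sets lay above all mock arrays and 6 below in GFP-negative cells (39.1% and 30.8% of all probe sets), and 6 above and 7 below in GFP-positive cells (43.4% and 33.6%). Both comparisons and that of ABCG2 use the same mock arrays. Set against the EZH2-Mt fractions, both ABCG2 arrays were above both fractions in 6 member probe sets and below in 7 (37.4% and 37.6% of all). The 6 were the 3 of Bcl2l11, 2 of Bcl2 and that of Bmf, and the 7 were 5 of Mcl1, Bid 1417045_at and Bad.

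**Figure D3:**
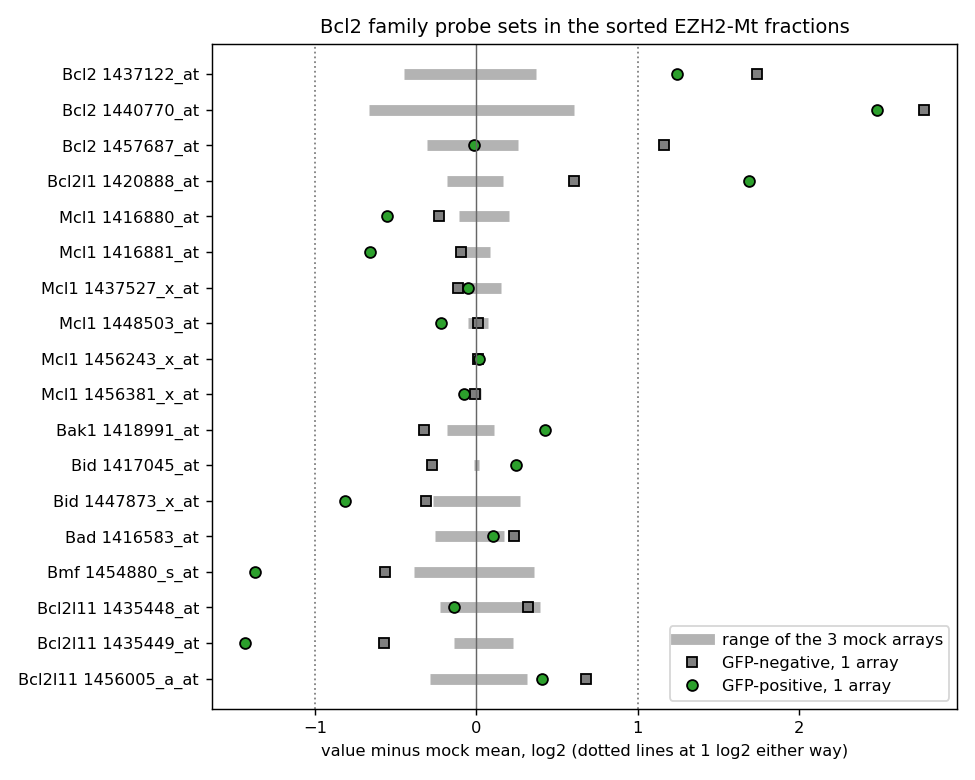
Signal of each EZH2-Mt fraction minus the mock mean (x axis, log2) for each of the 18 probe sets (y axis), with squares for GFP-negative and circles for GFP-positive cells. Grey bars span the 3 mock arrays and dotted lines mark 1 log2. Bcl2 1440770_at lies farthest right in both fractions, at 2.77 and 2.49, and Bmf and Bcl2l11 1435449_at lie farthest left in GFP-positive cells, at -1.37 and -1.43.

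Bcl2 values were 0.49, 0.46 and 0.90 in GFP-negative cells over 1437122_at, 1440770_at and 1457687_at, or 1.74, 2.77 and 1.16 above the mock means. In GFP-positive cells they were 0, 0.17 and -0.27, or 1.25 and 2.49 above the mock mean in the first 2 and -0.01 from it in 1457687_at, inside the mock range. Both fractions therefore lay below the ABCG2 arrays in 1437122_at and 1457687_at, and between those arrays in 1440770_at. Mcl1 stayed within 0.23 log2 of the mock mean in GFP-negative cells in all 6 probe sets, although 1416880_at lay below all mock arrays. In GFP-positive cells Mcl1 lay at -0.66 from mock in 1416881_at and -0.55 in 1416880_at, both below all mock arrays, and within 0.22 in the others. Of those others, 1448503_at and 1456381_x_at also lay below all mock arrays. Bcl2l1 lay at 0.06 in GFP-negative and 1.14 in GFP-positive cells, 0.61 and 1.69 above the mock mean, and GFP-positive cells were the highest of all 7 arrays.

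Bmf lay at -0.60 in GFP-negative and -1.40 in GFP-positive cells, 0.57 and 1.37 below the mock mean and both under the lowest mock array. Bcl2l11 again depended on the probe set. In 1435449_at GFP-negative cells lay at -0.48 and GFP-positive cells at -1.34, below all mock arrays. In 1456005_a_at the fractions lay at 0.27 and 0, above all mock arrays, and in 1435448_at both (0 and -0.46) lay inside the mock range. Bak1 lay below all mock arrays in GFP-negative cells (-0.20) and was the highest of all 7 arrays in GFP-positive cells (0.55). Bid 1417045_at split the same way, at -0.25 and 0.26, while Bid 1447873_x_at lay at -0.02 and -0.52. Bad, at 0.15 and 0.02, was within 0.23 log2 of the mock mean in both.

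Between the fractions, GFP-positive minus GFP-negative, 1 member probe set was 1 log2 or more higher and 1 lower, where 3.09% and 2.04% of all probe sets were. Bcl2l1 was higher by 1.08 in GFP-positive cells, and Bcl2 1457687_at was lower by 1.18, with the other Bcl2 probe sets at -0.49 and -0.29. Next came Bcl2l11 1435449_at (-0.86), Bmf (-0.81) and Bak1 (0.75). The BH3-only genes Bmf and Bcl2l11 were thus lower in GFP-positive cells in each of their 4 probe sets, without a replicate to set the difference against.

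Cell type markers also differed between the groups, and their part in these results was not tested. In bulk marrow fewer cells of a type and less RNA per cell cannot be told apart. All 13 probe sets of the neutrophil list fell on the ABCG2 arrays (limma), and the list mean was -3.92 and -5.53 there against -0.22 to 0.05 in mock. The second ABCG2 array was the lower of the pair in the neutrophil list and in every Mcl1 probe set, and a link between them was not tested. Of 10 monocyte probe sets 9 fell (list mean -2.82 to -2.67 against 0.76 to 0.95), and all 5 of the megakaryocyte list fell. The erythroid list lay inside the mock range (-0.48 and -0.21 against -1.17 to 0.38), with 2 of 7 probe sets higher and 1 lower, beside the smaller rise of Bcl2l1. By probe set B lineage markers were mixed, with 4 of 14 higher and 2 lower and a median difference of -0.79. Both falls were in Ighm, which has more of these probe sets than any other gene. By gene, 4 of 8 rose (Cd79b, Il7r, Pou2af1 and Spib) and 1 fell (Ighm). The B lineage list mean over genes was 1.38 and 1.81 on ABCG2 arrays against -1.09 to -0.33 in mock. Of 4 T and NK cell probe sets 3 rose (0.94 and 1.18 against -2.46 to -0.45), and of 12 stem and progenitor probe sets 8 rose and 1 fell (0.90 and 0.98 against -0.44 to -0.03). Plasma cell markers were split, with 2 of 9 higher and 3 lower, and the only measured stroma gene, Acp5, rose.

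**Figure D4:**
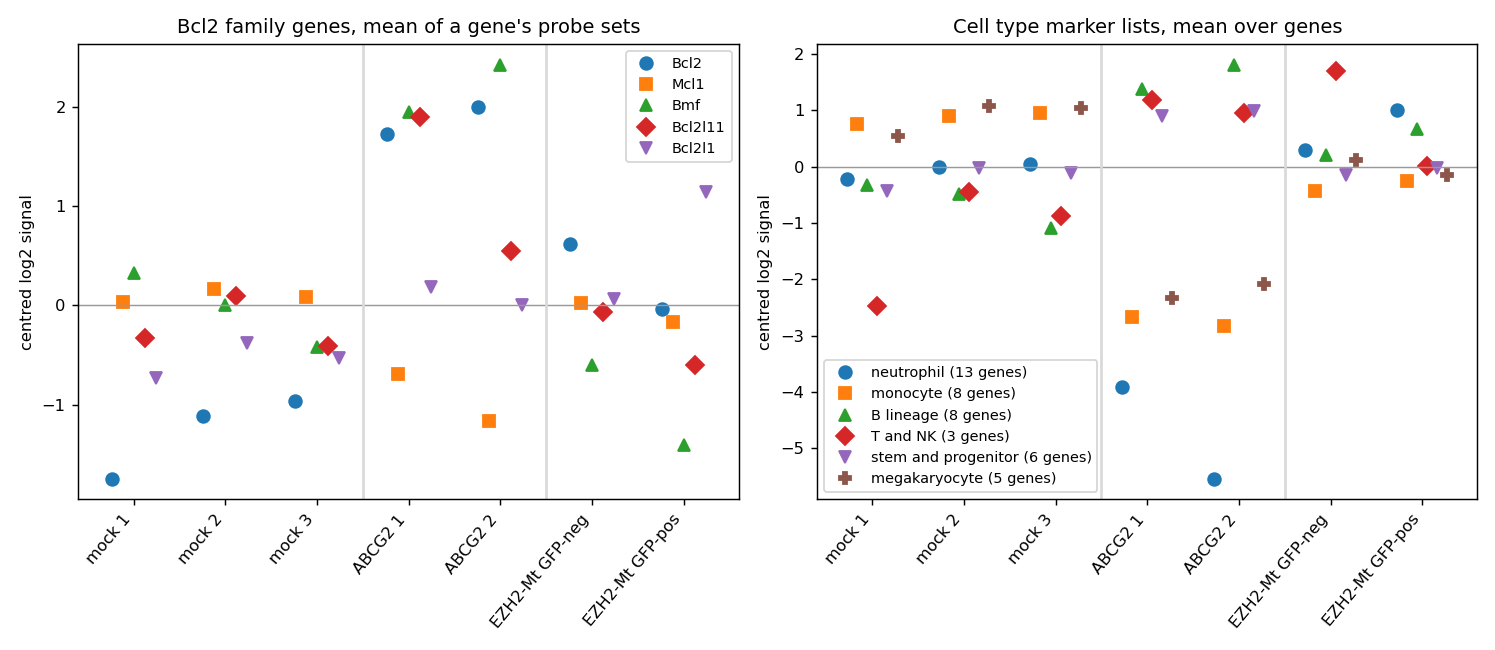
Left, mean of the centred log2 probe set values of 5 Bcl2 family genes on each array. Right, mean over the measured genes of 6 marker lists on the same arrays, with points shifted sideways only to separate them. On the ABCG2 arrays Bcl2 (1.73 and 2.002) is high where neutrophil markers (-3.92 and -5.53) are low, and Mcl1 (-0.69 and -1.17) is low there.

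In the EZH2-Mt fractions the T and NK list lay at 1.69 in GFP-negative and 0.02 in GFP-positive cells, both above mock, and so did the mean of Bcl2 (0.62 and -0.03 against -1.75 to -0.96 in mock). Only 3 of the 14 genes of that list were measured. The B lineage list lay at 0.20 in GFP-negative and 0.67 in GFP-positive cells, also above mock (-1.09 to -0.33). Its order between the fractions was thus opposite to that of Bcl2. The erythroid list lay at 0.93 and 2.19 against -1.17 to 0.38 in mock, with 6 of 7 probe sets at least 1 log2 above mock in GFP-positive cells, beside the high Bcl2l1 there. The neutrophil list lay at 0.29 and 1.01, above mock (-0.22 to 0.05). The mean of Mcl1 lay at 0.02 and -0.16, below mock (0.04 to 0.17). In each fraction 8 of 10 monocyte probe sets lay 1 log2 or more below mock.

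The rest of the death machinery moved in both directions on the ABCG2 arrays in the limma fit. Of 14 probe sets of 8 genes on a list of other family members, BH3-bearing proteins and proteins that bind them, 3 rose and 2 fell, where 31.5% and 25.3% of all probe sets did. Spns1, a lysosomal transporter, rose (1.02 ± 0.16), Becn1, the autophagy protein that binds Bcl2, fell in 1 of 2 probe sets (-0.65 ± 0.15), and Bclaf1, a nuclear factor named for its binding to Bcl2, had 2 probe sets higher (up to 1.05 ± 0.17) and 1 lower (-0.82 ± 0.17). The BH3-only genes Bbc3 (Puma, -0.15) and Pmaip1 (Noxa, -0.41) and the survival gene Bcl2l2 (0.27) did not pass, nor did Bcl2l13 and Bnip3, so that all calls on this list were in Spns1, Bclaf1 and Becn1. Of 28 probe sets of 17 genes of the apoptosome, caspases and mitochondrial release, 16 rose and 5 fell, where 31.5% and 25.3% of all probe sets did. By gene, 8 of the 17 rose and 4 fell, since Vdac1, Parp1, Dffb, Endog and Htra2 each rose in more than 1 probe set. Among the rises were Parp1 (2.48 ± 0.15), a DNA repair enzyme cut by caspases, Diablo (1.99 ± 0.14), which relieves caspases of their inhibitors, Endog (1.79 ± 0.22) and the executioner Casp6 (1.67 ± 0.24). The falls were in Apaf1, the scaffold of the apoptosome, in both probe sets (-0.85 and -0.68), and in Casp9, Fadd and Vdac2, and they numbered 2 without ABCG2 replicate 1 and 3 without mock replicate 2 or mock replicate 3. Casp6 (1.06, adjusted p = 0.0609), Becn1 (adjusted p = 0.105) and Bclaf1 (adjusted p = 0.0556) did not pass with quantile normalization, and Parp1 (1.498) did.

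Of 14 probe sets of 7 caspase inhibitor genes 6 fell, 4 of them of Cflar, 1 rose and 7 did not pass (25.3% lower and 31.5% higher over all probe sets), and the list median was -0.45 against 0.11 over all probe sets. Naip2, a member of the apoptosis inhibitor family that also senses bacterial secretion systems, fell by 4.89 ± 0.15 (limma, adjusted p = 1.77e-05), from between -0.09 and 0.04 on mock arrays to -4.77 and -5.05. Cflar, which blocks caspase 8, fell in all 4 of its probe sets, by up to 1.89 ± 0.18, and Xiap in 1 of 2 (-1.30 ± 0.14). With quantile normalization Naip2 (-2.87) and Cflar 1425687_at (-1.07) still passed. Birc6 rose in 1 of 4 (1.03 ± 0.14), and 2 inhibitor probe sets rose without ABCG2 replicate 2. In both EZH2-Mt fractions Naip2 lay within 0.39 log2 of the mock mean.

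Of 51 probe sets of 19 regulators of the family, 19 rose and 8 fell, where 31.5% and 25.3% of all probe sets did. Pim2, a kinase that phosphorylates Bad, had the largest difference, at -0.87, -0.03 and -0.50 on mock arrays and 3.83 and 4.31 on ABCG2 arrays (4.53 ± 0.28). Foxo1, of the forkhead factors known to activate Bcl2l11, rose in all 3 probe sets (2.27 to 2.68) and lay at -1.61 to -1.13 on mock arrays in 1416981_at, whereas Foxo3 did not pass (-0.37 and -0.46). Huwe1, a ubiquitin ligase of Mcl1, rose (1.45 ± 0.15), and so did Dynll2 (1.30 ± 0.18), a dynein light chain that tethers Bmf. Dynll2 did not pass with quantile normalization (0.83, adjusted p = 0.0721). The rises numbered 12 without ABCG2 replicate 1 or mock replicate 2, and the falls 3 without mock replicate 2 and 5 without mock replicate 1 or mock replicate 3. Foxo1 lay above mock in both EZH2-Mt fractions (by 0.57 to 1.503 over its 3 probe sets), and so did Pim2 (by 1.39 in GFP-negative and 0.46 in GFP-positive cells).

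The likeness of other genes to Bcl2 was measured as the root mean squared difference of centred values over the 7 arrays, among 14226 probe sets of other genes. The nearest to Bcl2 1437122_at were Slfn10-ps (0.22 log2), Pde7a (0.25), a cAMP phosphodiesterase, the histone gene H2aw (0.33), Hs3st1 (0.36) and the MHC class II gene H2-Ob (0.40). Slfn10-ps lay at -1.40, -0.81 and -1.56 on mock arrays, 2.35 and 2.29 on ABCG2 arrays, and 0.40 and 0 in GFP-negative and GFP-positive cells. The nearest to Bmf, among 14228, were Rnase4 (0.29), the ribosomal protein gene Rps20 (0.30), the mitochondrial ADP/ATP carrier Slc25a4 (0.30), Mndal (0.30) and Fyttd1 (0.31).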

How the data were processed

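Per the labels' protocols, RNA taken up in TRIZOL was column purified and 5 micrograms were amplified to about 50 micrograms of labelled cRNA. The deposited values are log2 signals, base 2 being assumed because no source states it. Per the file headers the authors kept probe sets within raw signal limits and called Present or Marginal in 100% of samples. The submitters' processing notes name MAS5, without a version. How arrays were scaled to each other is not given in the sources used here. For each of the 16309 deposited probe sets the median over the arrays is 0. The value table equals the arrays' own files (largest difference 0), and 0 of its columns belong to other samples. After 54 controls were set apart, 14229 of 16255 probe sets had 1 symbol in the platform annotation, 483 several and 1543 none.

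ABCG2 was compared with mock per probe set with limma (version 3.58.1, R 4.3.3; functions lmFit and then eBayes; two-sided p) on 2 and 3 arrays, with Benjamini-Hochberg adjustment over 16255 probe sets. Values after ± are standard errors. The fit was tested on simulated data. Each label names a recipient mouse without a number, so p-values measure only the spread between these arrays, whose number limits the precision. The EZH2-Mt fractions hold 1 array each and were not tested, and 1 log2 was taken as 2-fold. No pseudocount was needed. Every member probe set is reported. For other lists the up to 4 genes with the largest difference among those that passed are named, along with probe sets chosen after their values were seen (Apaf1, Casp9, Fadd, Vdac2, Bbc3, Pmaip1, Bcl2l2, Bcl2l13, Bnip3, Foxo3 and further probe sets of named genes). For likeness, the 5 nearest genes are named for Bcl2 and Bmf, the members with the largest differences. The members and lists were chosen with earlier results of these data known.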

Additional observations from a re-analysis of the deposited data

How the results depend on the processing

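The SD of the centred values over all probe sets was 1.06 and 1.13 on the ABCG2 arrays and 0.33 to 0.42 on mock arrays. Quantile normalization of the centred values, which gives all arrays 1 common spread, moved several counts. It left 1988 probe sets higher and 2381 lower of 5122 and 4112, and 7 member probe sets higher and 3 lower. The other Bcl2 family list then had 1 higher and 1 lower, the apoptosome and caspase list 5 and 0, and the regulators 6 and 3. Leaving out probe sets ending in _s_at and _x_at removed 3 Mcl1 probe sets, a Bid probe set and the only one of Bmf. The rise of Bmf could therefore not be assessed under this setting. The setting gave 6 members higher and 3 lower, where 4193 and 3556 of all probe sets kept in it were. It also gave 10 apoptosome and caspase probe sets higher and 5 regulators lower. Whether the replicate numbers pair the arrays could not be decided. The r of deviations was 0.08 for the first pair and -0.04 for the second. It was 0.14 between mock replicate 3 and ABCG2 replicate 2. With 2 ABCG2 arrays the deviations of 1 mirror those of the other, so these values are tied by construction. A replicate block by that number takes up mock replicate 3, which has no ABCG2 partner. Its differences therefore equal those without mock replicate 3. With this block 5 members were higher and 6 lower, 4178 and 3548 of all probe sets. The apoptosome and caspase falls were 2 and the regulator falls 3. The block ended the calls of Bcl2l1 (0.65, adjusted p = 0.0691) and Bcl2l11 1456005_a_at (1.42, adjusted p = 0.0783), and treating the EZH2-Mt fractions as 1 group in a fit of all 7 arrays ended that of Bcl2l1 (adjusted p = 0.108). With 1 array left out, members higher ran from 6 to 8 and lower from 6 to 7, apoptosome and caspase falls from 2 to 5, regulator rises from 12 to 16 and falls from 3 to 7, and caspase inhibitor rises from 1 to 2. With a fold of 0.58 log2, 5 member probe sets lay above mock in GFP-negative cells and 4 below in GFP-positive cells. Between the fractions 2 were higher and 3 lower at that fold. The share over all probe sets at this fold is not given here, so these counts are not read as particular to the family. With the mean of a gene's probe sets as the unit, 4 of 8 members rose and 2 fell. Over all 8378 genes 2983 rose and 2196 fell in that fit. In ABCG2 against mock 0 member differences changed sign under these alternatives. Small differences of the EZH2-Mt fractions from mock did change sign with another mock base, for example Bcl2l11 1435448_at in GFP-positive cells, from -0.14 to 0.04 with the mock median. Why counts moved under quantile normalization beyond its own construction was not tested. With 2 and 3 arrays small differences are hard to resolve, and a member that did not pass is not shown to be the same in both groups.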
